A study of Homo sapiens with 93 samples.

Results

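Trimethylation of lysine 36 on histone H3 (H3K36me3) was examined over 10 genes for chaperones and folding enzymes of the endoplasmic reticulum (ER): HSPA5 (ENSG00000044574), HSP90B1 (ENSG00000166598), CALR (ENSG00000179218), CANX (ENSG00000127022), PDIA3 (ENSG00000167004), PDIA4 (ENSG00000155660), PDIA6 (ENSG00000143870), DNAJB9 (ENSG00000128590), HYOU1 (ENSG00000149428) and SEL1L (ENSG00000071537). The genes were chosen by name for their function. All 10 were found among the 14000 features of the deposited count table, by their Ensembl identifiers, and all 10 were among the 13915 features that reached 10 counts in 47 or more libraries. The mark was measured by CUT&Tag, in which an antibody brings a transposase to the marked chromatin and the DNA it cuts is sequenced, in 93 human lymphoblastoid cell lines. Such lines are made by infecting B cells with Epstein-Barr virus. They were grown without any treatment named in the labels, and the 93 libraries form 1 group with 1 library per line. Differences between lines therefore hold line, culture and technical differences together, and a larger share of cells carrying the mark cannot be told apart from more mark per cell. The labels name 4 culture batches but no line's batch, so batch and line cannot be told apart. The labelled cell type could not be checked against its markers, because only the members' identifiers could be tied to gene names.

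H3K36me3 is laid down over the bodies of genes by SETD2, which travels with elongating RNA polymerase II, so the mark follows transcription. The ER folds secreted and membrane proteins. HSPA5 (BiP) is its main Hsp70 chaperone and was found as a protein that binds immunoglobulin heavy chains, while CALR and CANX hold glycoproteins by their sugars and the PDI family forms and rearranges disulfide bonds. When unfolded proteins build up, the sensors ATF6, IRE1 and PERK start the unfolded protein response, and ATF6 and XBP1 then raise transcription of many of these genes. Plasma cells, the secreting descendants of B cells, depend on this response.

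A regulatory feature linked to these genes is the ER stress response element (ERSE), to which ATF6 binds together with NF-Y. The genes were chosen by name and not by this element. Since ATF6 acts on many of them, matches among them are not independent of that choice. It was searched as CCAAT, then 9 bases of any kind, then CCACG, on both strands of RefSeq promoter windows in build GRCh38.p14 that run from 250 bases before to 50 bases after a transcript's start. A gene can have several windows. Windows were present for HSPA5, HSP90B1, CALR, CANX, PDIA4, PDIA6, DNAJB9, HYOU1 and SEL1L (9 genes, 14 windows) and not for PDIA3. The element was found in 7 of these windows, from 5 genes, and in 0.0769% of all 35114 windows. The matches are shown because they mark out genes whose H3K36me3 is compared below, with the fixed letters in capitals and 5 bases on each side:

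HSPA5: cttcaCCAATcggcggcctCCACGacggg

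HSP90B1, first match: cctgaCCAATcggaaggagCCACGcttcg

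HSP90B1, second match: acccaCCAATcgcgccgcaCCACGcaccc

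CALR: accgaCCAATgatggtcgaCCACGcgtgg

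CANX: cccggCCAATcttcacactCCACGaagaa

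PDIA6: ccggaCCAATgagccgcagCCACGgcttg

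These lie at chr9:125241391-125241409 (minus strand) for HSPA5, chr12:103930216-103930234 (plus) and chr12:103930321-103930339 (minus) for HSP90B1, chr19:12938384-12938402 (minus) for CALR, chr5:179698778-179698796 (plus) for CANX and chr2:10812853-10812871 (minus) for PDIA6. The CANX and PDIA6 matches belong to transcript starts that lie inside the spans of these genes, not at their outermost ends. The HSPA5 element begins 66 bases upstream of the gene's start. The related ERSE-II was searched as ATTGG, 1 base of any kind, then CCACG. It was found in 0.0541% of all windows and, among the 9 genes, in HYOU1 alone. HYOU1 held it at 2 places, chr11:119057274-119057284 and chr11:119057380-119057390, both on the plus strand, opposite to the gene:

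HYOU1, first match: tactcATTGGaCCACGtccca

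HYOU1, second match: ctgggATTGGaCCACGtcacg

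A match is a stretch of letters and not a measured binding site, and no match says only that these letters are not in these windows.

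The smallest library held 2842955 counts, the median one 14883653 and the largest 24325746, so a member's raw count reflects depth first. Counts were therefore expressed as CPM, in which each library total, scaled by its TMM factor, is brought to the same size. Reads amplified by PCR without molecular identifiers are not independent molecules. The level of the whole table also changed along its rows. The median feature stood at 5.75 log2 CPM in the first 1900 rows, at 4.88 in the rows after 3200 up to 7700, and at 5.72 after row 7800. HSP90B1 (chromosome 12), SEL1L (14), PDIA3 (15) and CALR (19) lie in the lower stretch. HSPA5 (9), CANX (5), PDIA4 (7) and DNAJB9 (7) lie after row 7800, and PDIA6 (2) is at row 7768. HYOU1 (11), at row 2815, lies where counts drop at a row that differs between libraries. Levels are thus compared between members only with this in view, and the part of the stretch in a member's level was not tested.

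HSPA5 had 150 to 1628 counts per library. Its level was 20.6 CPM in the lowest line, 44.96 in the median line and 77.5 in the highest, and 81 of 93 lines lay within 1.5-fold of the median. HSP90B1 (GRP94), the Hsp90 of the ER, ran from 41.03 through 64.2 to 116 CPM. DNAJB9 (ERdj4), a J-domain partner of HSPA5, was the member with the fewest counts, 10 to 161 per library. Its level was 2.13 to 10.1 CPM with a median of 5.37, a 4.76-fold range that was the widest of the members, and counting error is largest here. HYOU1 (GRP170), which exchanges the nucleotide bound by HSPA5, ran from 47.5 through 69.3 to 165 CPM; 13 lines lay at least 1.5-fold above its median and 0 as far below, so its values were skewed upward.

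Of the lectin chaperones, CALR, which is soluble, ran from 36.5 through 59.6 to 101 CPM, with 7 lines at least 1.5-fold above and 8 as far below the median. CANX, its membrane-bound relative, ran from 144 through 230 to 314 CPM and stayed within 1.5-fold of the median in 92 of 93 lines. Of the disulfide isomerases, PDIA6 (P5) ran from 97.2 through 127 to 173 CPM and PDIA4 (ERp72) from 106 through 158 to 217, each within 1.5-fold in 93 of 93 lines. PDIA3 (ERp57), the partner of the 2 lectins, ran from 60.2 through 98.7 to 154, within 1.5-fold of the median in 89 lines. SEL1L, which joins the HRD1 ubiquitin ligase in ER-associated degradation, ran from 60.7 through 85.98 to 136.

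**Figure D1:**
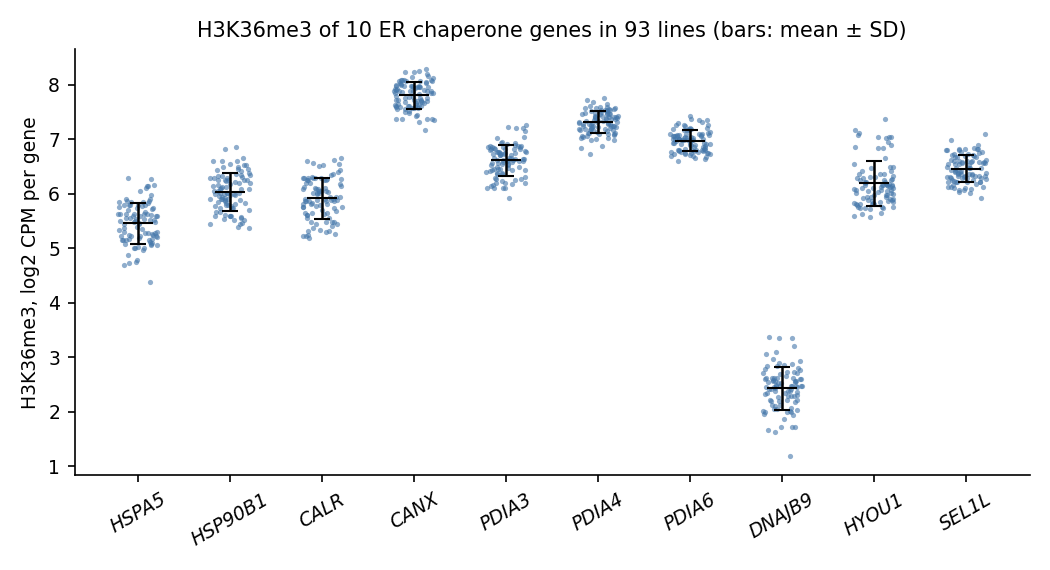
H3K36me3 per gene (y axis, log2 CPM) in each of the 93 lines (points) for the 10 members, with the mean and SD as bars. PDIA6 (SD 0.19) and PDIA4 (SD 0.20) have the narrowest spread, and HYOU1 (SD 0.41) has a group of lines above the rest; values are per gene and not per kilobase.

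Between genes, levels were compared per kilobase of the RefSeq gene span (GRCh38.p14), since the sources used here do not state which interval was counted. CALR (span 5.88 kb) was highest, at a median of 10.1 CPM per kb, and lay above HSPA5 (6.93 CPM per kb) in 93 of 93 lines, although it is in the lower stretch of the table. HSPA5 and PDIA4 (6.22) were not separated, with HSPA5 higher in 56 of 93 lines. HYOU1 (5.32), CANX (4.34) and PDIA3 (3.68) followed. PDIA3 and HSP90B1 (3.67) were level, with PDIA3 higher in 41 lines. PDIA6 (2.34), SEL1L (1.38) and DNAJB9 (1.08 CPM per kb) were lowest. HSP90B1 was above PDIA6 and PDIA6 above SEL1L in 93 of 93 lines, and SEL1L was above DNAJB9 in 86. The spans of CANX (52.99 kb), PDIA6 (54.3 kb) and SEL1L (62.3 kb) run to the outermost RefSeq transcripts, so an unmarked part of a span lowers these values.

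HYOU1 fell into 2 groups of libraries. The row at which counts drop was placed in each library in the rows after 1900 up to 3200, leaving out HYOU1 and the 20 rows on each side of it. The search gives a row for every library, and whether each library has a drop was not tested. The drop, fitted as 1 size for all libraries, was 0.86 on the log2 scale, and its row ranged from 2017 to 3047. In 15 libraries it came after HYOU1's row and in 78 before it. HYOU1 stood at 93.8 to 165 CPM (median 130) in the 15 libraries and at 47.5 to 89.99 CPM (median 66.5) in the 78. The groups did not overlap. Over all features, 12 of 13915 (0.0862%) were higher in the 15 libraries without overlap, and all 12 lie in rows 2811 to 2826, around HYOU1. The groups were formed by HYOU1's row, so rows near it are those that such a split would separate. The share is therefore set by that choice of row.

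The mean of HYOU1 differed by 0.92 on the log2 scale between the groups, close to the size of the drop. The rows just before and just after it in the table differed by 1.34 and 1.03, also without overlap. The other 9 members differed by 0.02 (SEL1L) to 0.38 (CALR), and their groups overlapped. The deposited scores of HYOU1 were split at the same place, from 0.98 to 2.75 in the 15 libraries and from -1.47 to 0.93 in the 78. The 15 libraries held 11494156 to 24325746 counts and the 78 held 2842955 to 24324813. Odd and even rows placed the drop on the same side of HYOU1 in 92 of 93 libraries, and in 24 libraries it lay within 100 rows of HYOU1. In 2 libraries it was placed at the edge of the rows left out around HYOU1, so its side is not settled there.

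**Figure D2:**
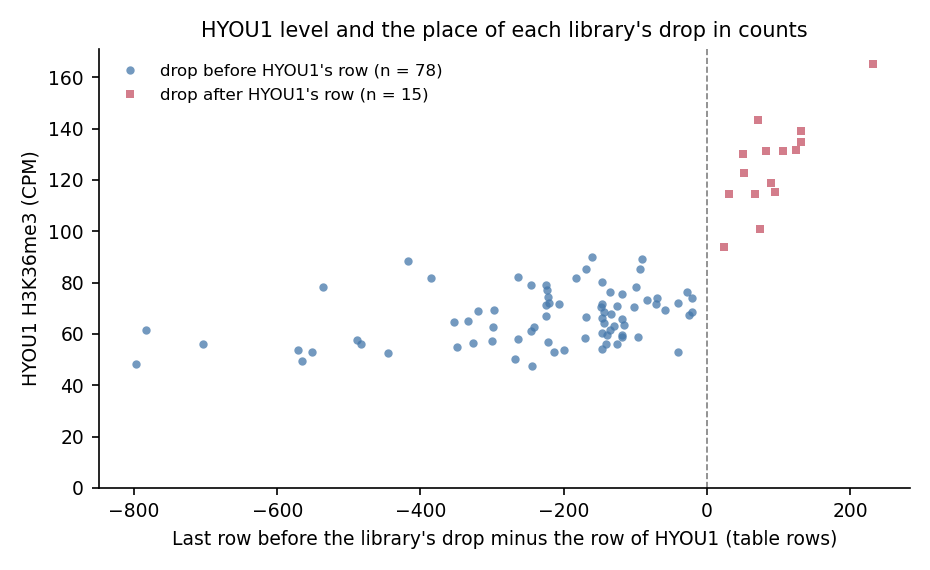
HYOU1 level (y axis, CPM) against the table row of each library's drop in counts, given as its distance from HYOU1's row (x axis, rows), for 93 libraries. The 15 libraries whose drop comes after HYOU1 (squares) lie at 93.8 CPM or more and the 78 others (circles) at 89.99 CPM or less; HYOU1 and 20 rows on each side were not used to place the drop.

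Variation between lines beyond that of features with like counts was called for CALR and HYOU1 only, so for 2 of 10 members, against 18.4% of all features (edgeR's deviance goodness-of-fit test at the trended dispersion, Benjamini-Hochberg adjustment over 13915 features and a model holding depth and dynamic range). The share of members called is near this background. CALR had a biological coefficient of variation of 0.204 against 0.161 on the trend (adjusted p = 0.00247), and HYOU1 of 0.220 against 0.160 (adjusted p = 1.67e-05). HSPA5, at 0.185 against 0.161, did not pass (adjusted p = 0.14). It passed with no covariates (adjusted p = 0.00565) and with 5 principal components (adjusted p = 0.0123), and CALR did not pass with 5 principal components (adjusted p = 0.252).

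The call for HYOU1 went with the drop. With the side of the drop as a further covariate, the log2 ratio of HYOU1's own to its trended dispersion went from 0.91 to -0.76 (adjusted p = 1), and among the 78 libraries it was -0.79 (adjusted p = 1, edgeR in each case). CALR was still called in both settings (adjusted p = 0.0071 and 0.00865). At the other end, PDIA6 had a log2 ratio of -1.81, at the 10.8th percentile of features, with a coefficient of 0.0833 against 0.156 on the trend. CANX (-1.22), SEL1L (-1.19) and PDIA4 (-1.03) were also below the trend. The median ratio of the members, -0.49, was close to that of all features, -0.56.

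All 10 members rose with the dynamic range of the library, the median log2 CPM of the top 1/5 of features by level minus that of the bottom 1/5, which reflects how far marked genes stand above the rest. Of all features, 44.7% rose and 35.6% fell with it (edgeR's quasi-likelihood test, depth as covariate, Benjamini-Hochberg adjustment). By mean level, CANX, PDIA4 and PDIA6 are in the top 1/5 of features and DNAJB9 is in the bottom 1/5, so these members enter the measure. The other members, HSPA5 among them, enter neither part. The slopes describe how the members follow the measure. Libraries of larger dynamic range tended to hold fewer counts, though not in every case. Medians compared between libraries of small and large dynamic range were not adjusted for depth, so they hold both differences. HSPA5 was at a median of 35.5 CPM (20.6 to 51.9) in the 31 libraries of smallest dynamic range and at 54.2 CPM (26.7 to 77.5) in the 31 of largest. The ranges overlapped. The slope of HSPA5 was 1.52 ± 0.19 log2 per unit (SE, adjusted p = 8.9e-12), steeper than 98.9% of features, though its mean level was only at the 51.1th percentile.

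HSP90B1 (1.40 ± 0.15 SE, adjusted p = 4.73e-14), CALR (1.41 ± 0.21 SE) and HYOU1 (1.39 ± 0.21 SE) had slopes nearly as steep. HYOU1's was 0.69 with the side of the drop as a covariate and 0.68 without depth in the model. Between the same 31 libraries each, not adjusted for depth, HYOU1's median level went from 64.8 to 71.3 CPM. PDIA3 (1.10), CANX (1.01) and SEL1L (0.97) followed, and DNAJB9 (0.77), PDIA4 (0.74) and PDIA6 (0.70) were shallowest. PDIA4 went from a median of 149.6 to 167.4 CPM between the same libraries, also not adjusted for depth. Its slope was 0.38 without depth in the model. The median slope was 1.06 over the members and 0.18 over all features. DNAJB9 rose although its level was higher than that of only 6.78% of features (adjusted p = 0.00208). This rise was not seen in the 46 libraries of smaller total (slope 0.03, adjusted p = 0.939) and did not pass in the 78 libraries with HYOU1 after the drop (slope 0.52, adjusted p = 0.123).

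With library depth, 2 members rose and 4 fell, against 29.3% and 36.1% of all features (edgeR's quasi-likelihood test, dynamic range as covariate). HYOU1 rose by 0.36 ± 0.05 log2 per doubling of the total (SE, adjusted p = 5.27e-11), a slope above 99.6% of features, and by 0.20 with the side of the drop as a covariate. PDIA4 rose by 0.15 ± 0.02 (SE, adjusted p = 4.7e-08). DNAJB9 (-0.14, adjusted p = 0.00932), PDIA3 (-0.07, adjusted p = 0.018), SEL1L (-0.05, adjusted p = 0.0409) and PDIA6 (-0.05, adjusted p = 0.0251) fell. With the library total as the only covariate, 9 members passed in edgeR's test, 2 higher and 7 lower. The share of all features passing in that model was not computed, so this count has no background beside it. Against the model with dynamic range, more members passed. HSP90B1 (-0.21, adjusted p = 2.02e-06), CANX (-0.14, adjusted p = 2.92e-06) and HSPA5 (-0.15, adjusted p = 0.0025) joined, and PDIA3 went to -0.18. SEL1L did not pass with no filter (adjusted p = 0.0569) or with the side of the drop as a covariate (adjusted p = 0.14), nor PDIA6 without the 10 shallowest libraries (adjusted p = 0.166). Within the 46 libraries below the median total, 2 members passed in edgeR's test (HYOU1 and PDIA4), against 32.7% of all features. Within the 47 others 0 passed, and 0 had an unadjusted p under 0.05, against 28.7% of all features with an adjusted p under 0.05. HYOU1 had a slope of 0.26 there (edgeR, adjusted p = 0.424) and PDIA4 of 0.16 (adjusted p = 0.399).

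**Figure D3:**
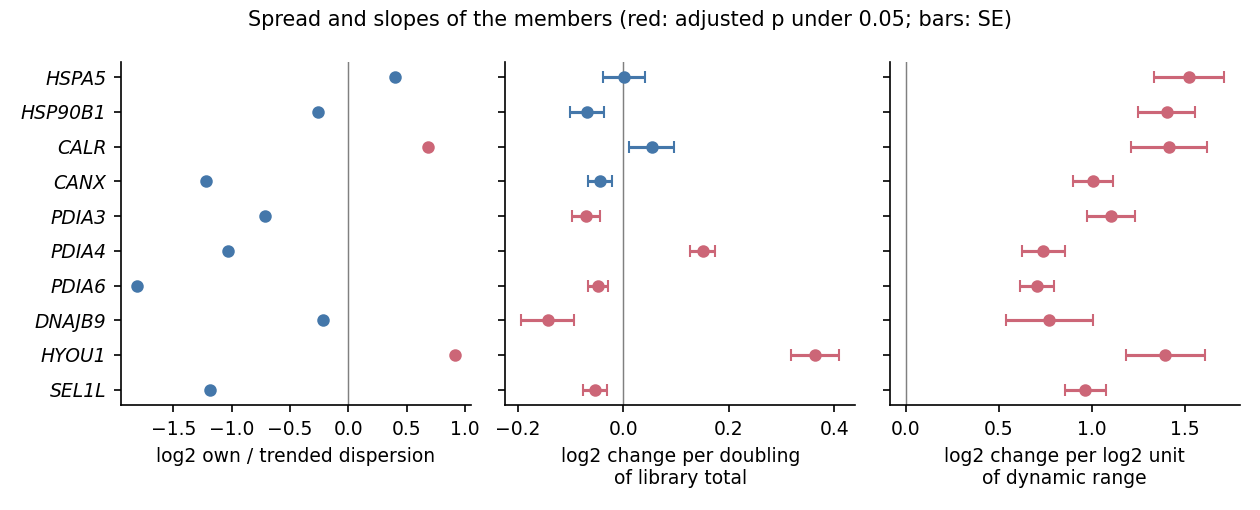
For each member, the log2 ratio of its own to the trended dispersion (left), the log2 change per doubling of the library total (middle) and the log2 change per log2 unit of dynamic range (right), with SE as bars in the last 2 panels. Red marks an adjusted p under 0.05: CALR and HYOU1 on the left, 6 members in the middle and all 10 on the right, where HSPA5 is steepest at 1.52.

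Across lines, the members' levels went up and down together after depth and dynamic range had been removed. Pearson's r lay above 0 in 45 of 45 pairs, with a median of 0.353 (median Spearman's rho 0.325, n = 93 lines). Over all pairs of the 13915 features, r lay above 0 in 49192759 of 96806655, with a median of 0.00428. It was above 0.3 in 64.4% of member pairs and in 9.32% of all pairs. These are descriptions: the points share libraries, depth, enrichment and the composition of the DNA that was cut. Features whose slope with dynamic range lay within the members' range (3473 features) also correlated among themselves, with a median r of 0.216 and 34.1% of pairs above 0.3. Those of them with a mean level at or above that of HSPA5, which 9 of the 10 members reach, had a median r of 0.24 and 39.2% of pairs above 0.3 (2326 features). How much of the members' correlation goes with what they share with these wider sets was not tested. The median over the member pairs was 0.269 and 0.406 in the 46 shallower and 47 deeper libraries, each fitted on its own, and 0.349 and 0.405 when the residuals of the fit to all 93 libraries were split into the same sets.

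The highest values were among 6 genes, HSPA5, HSP90B1, CALR, CANX, PDIA3 and PDIA6, a group picked out after the values had been seen. Their 15 pairs had r from 0.422 to 0.773 with a median of 0.673, and the other 30 pairs from 0.0557 to 0.508 with a median of 0.296. HSPA5 and HSP90B1, on chromosomes 9 and 12, had r = 0.773 (rho = 0.769; r = 0.754 once the 2 lines most distant from HSPA5's median were left out). CANX and PDIA3 had r = 0.771 (rho = 0.736), and HSP90B1 and PDIA3 r = 0.759 (rho = 0.748). With the residuals of the fit to all libraries split in this way, the 15 values lay between 0.457 and 0.796 in the shallower and between 0.387 and 0.775 in the deeper libraries. The 5 genes with an ERSE match shown above are all among the 6, and their 10 pairs ran from 0.422 to 0.773. Since the 6 were picked by their r, high values among these 5 follow from that choice. PDIA3, the remaining gene, had no promoter window to search, and its r with the 5 ran from 0.579 to 0.771. Whether r goes with the element was not tested.

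**Figure D4:**
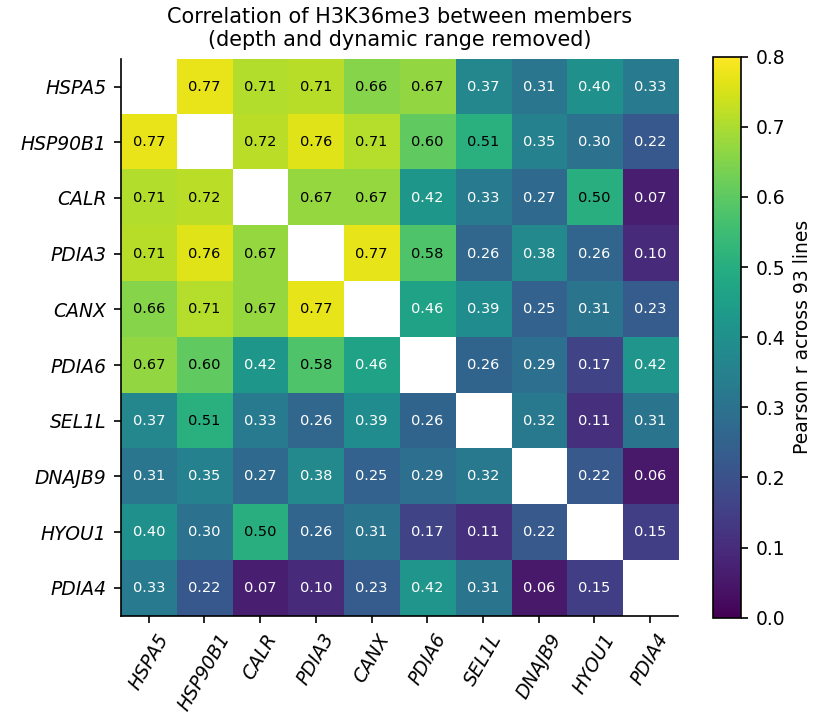
Pearson r across 93 lines between the H3K36me3 levels of each pair of members, after removing depth and dynamic range (color scale from 0 to 0.8). The upper left block of 6 genes runs from 0.42 to 0.77, and the column of PDIA4 from 0.06 to 0.42.

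Measured against all 13914 other features, HSP90B1 was the feature with the second highest r to HSPA5, and HSPA5 ranked 4 for HSP90B1. For PDIA6, HSPA5 ranked 1 (r = 0.669, rho = 0.636) and HSP90B1 ranked 2 (r = 0.605, rho = 0.6). CANX ranked 8 for PDIA3 and PDIA3 ranked 5 for CANX. HSPA5 had 5 of the other 9 members among the top 1% of features by r, HSP90B1 and PDIA3 had 4 each, and SEL1L had 0. CALR stood differently: its highest r to a member was 0.718, with HSP90B1, but that ranked only 128. The number of features with r above 0.5 was 1062 for CALR, 1030 for CANX and 960 for PDIA3.

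By the median of Pearson's r with the other members, PDIA4 was lowest, at 0.221, followed by HYOU1 at 0.262. The order depends on the measure. The share of all features with an r above that median was largest for HYOU1, 11.15%, against 8.35% for PDIA4. The 9 values of PDIA4 ran from 0.0557 to 0.418, and the highest was with PDIA6 (rho = 0.43). PDIA4 and DNAJB9, the only pair on 1 chromosome, had the lowest r of all, 0.0557 (rho = 0.127). SEL1L was highest with HSP90B1 (r = 0.508, rho = 0.472), DNAJB9 with PDIA3 (r = 0.375, rho = 0.325) and HYOU1 with CALR (r = 0.5, rho = 0.478). Among the 78 libraries with HYOU1 after the drop, HYOU1 and HSPA5 had r = 0.48 against 0.401 in all, and HYOU1 and CALR 0.442 against 0.5. The pair that moved most was HYOU1 and SEL1L, at 0.351 against 0.111.

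Rows next to a member in the table gave a further reference. The rows before and after HSPA5 had r = 0.0807 and 0.272 with it, both below the lowest r of HSPA5 with a member, 0.313 (DNAJB9). HSP90B1 stood differently, with -0.315 for the row before it and 0.896 for the row after it, above its r with any member. CALR (0.587 and 0.714) and HYOU1 (0.798 and 0.789) also went with both of their neighbours, and for HYOU1 these were above its r with any member. The row after PDIA3 (0.498) and the row before CANX (0.464) were above their r with several members, and the row before DNAJB9 (0.367) was close to its highest r with a member, 0.375. The rows before and after PDIA6 had r = 0.364 and -0.221, those beside PDIA4 0.136 and 0.183, and those beside SEL1L -0.186 and -0.198. The remaining rows had 0.162 (after CANX), -0.0854 (before PDIA3) and -0.119 (after DNAJB9).

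**Figure D5:**
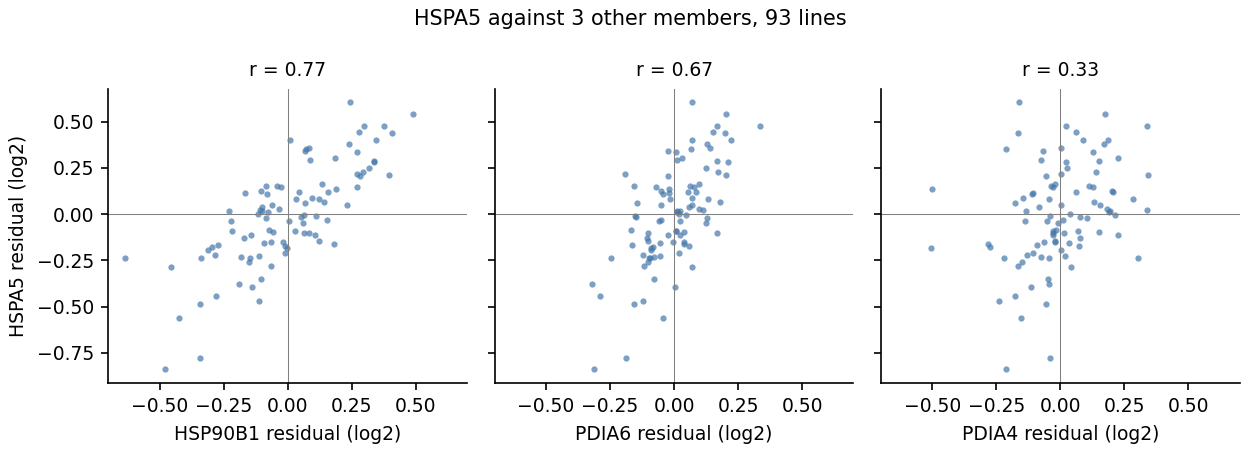
HSPA5 against HSP90B1, PDIA6 and PDIA4 in 93 lines (points), each as the log2 CPM residual after removing depth and dynamic range. HSPA5 goes with HSP90B1 (r = 0.77) and PDIA6 (r = 0.67) over the whole range and less with PDIA4 (r = 0.33).

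Line by line, the members tended to be high or low together. In 25 of 93 lines at least 8 of the 10 members lay above their median residual, and in 29 lines at most 2 did. Such counts were not made for other sets of 10 features, so they have no background beside them. All 10 lay above it in 7 lines and none in 5. In the 10 lines highest for HSPA5, the residuals of HSP90B1, CALR, CANX, PDIA3, PDIA6 and DNAJB9 were above 0 in 10 of 10, and those of PDIA4, HYOU1 and SEL1L in 8. The median residual in these lines was 0.43 for CALR, 0.29 for HSP90B1 and 0.07 for PDIA4, on the log2 scale. In the 10 lines lowest for HSPA5, HSP90B1 was below 0 in 10 lines, with a median of -0.31, and DNAJB9 in 7. These lines were chosen by HSPA5, and the values describe the correlations above in another form.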

How the data were processed

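H3K36me3 CUT&Tag was measured in 93 lymphoblastoid lines, 1 library each. The deposited table holds whole-number counts for 14000 features and a second deposited table holds scores. In the scores, every library has the same sorted values, from -3.92 to 3.92. The submitters' processing notes name HISAT2 2.2.1, bedtools and hg38, without their roles; no source used here states the counted interval or how the scores were made. The members and lists were chosen with earlier results of these data known, and the range searched for the drop came from those results. All 10 members are named.

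The 13915 features that reached 10 counts in 47 or more libraries were kept. Counts were scaled by TMM in edgeR 4.0.16 (R 4.3.3) and levels given as log2 CPM with a prior count of 2. Log2 library total and dynamic range were covariates. Excess variation was tested by the deviance at the trended dispersion, and slopes by the quasi-likelihood test, both with Benjamini-Hochberg adjustment over all features and a threshold of 0.05. The procedure was run on simulated data with planted spreads and slopes, which held no drop along the rows. The outcome of that run is not given here. Correlations used residuals of log2 CPM on both covariates, in Python 3.11.15. Library totals, 2842955 to 24325746, limit the precision most for DNAJB9. Alternatives were DESeq2 1.42.0, other scaling, no filter, other covariates, subsets of libraries and the deposited scores. Promoter windows and gene spans came from RefSeq. Other ER pathway genes and B cell markers were not analysed here, because identifiers other than the members' are not paired with names.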

Additional observations from a re-analysis of the deposited data

How the results depend on the processing

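No paired analysis was possible because all 93 libraries belong to 1 group. Other scaling could hardly move a member's mean log2 level, because the scaling factors have the same geometric mean in each setting. Without the 10 shallowest libraries, mean levels moved by less than 1 SD. Over the alternatives, the count of members rising with dynamic range stayed at 9 or 10. Of all features, 44.7% rose in the main fit, and this share was not computed in the alternatives. The median pair correlation ran from 0.269 to 0.557. Each alternative lay within 0.211 of the 0.353 from the main fit, where 0.211 is the SD over pairs. This SD is the spread between pairs and not an error of their median. The count of members called variable, 2 in edgeR, was 0 by DESeq2's dispersion outliers. These were only 269 of 13915 features, so 0 of 10 members is near that background. The count was 1 with the side of the drop as a covariate and 1 in libraries with HYOU1 after the drop. The last 2 settings were chosen after seeing the data, and the share of all features called in them was not computed. The count called with depth, 6, was 2 below and 0 at or above the median total (edgeR), against 32.7% and 28.7% of all features.

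Among dispersion ratios, HSP90B1 changed sign to 0.42 with no covariates and DNAJB9 to 0.0018 in libraries with HYOU1 after the drop. HYOU1 went to -0.79 in those libraries and to -0.76 with the side as a covariate, where the covariate removes the difference between the groups.

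Among depth slopes, CALR went to -0.0027 with the side as a covariate and -0.083 with the library total alone. CANX went to 0.15 and SEL1L to 0.10 at or above the median total. HSPA5, near 0, went to -6.7e-05 in libraries with HYOU1 after the drop, -0.013 with the side as a covariate, -0.00057 with DESeq2 size factors, -0.056 at or above and -0.0018 below the median total, and -0.15 with the total alone, where it passed (edgeR, adjusted p = 0.0025). The cause was not tested for the other changes. Depth limits DNAJB9 most, with 10 counts in its lowest library.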

Other observations

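The deposited scores kept the order of the lines. Spearman's rho between a member's score and its log2 CPM across 93 lines was 0.965 for HYOU1, the lowest, and 0.987 for DNAJB9, the highest. The median correlation over pairs of members was 0.485 in the scores, against 0.557 in log2 CPM with no covariates removed.

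Some features whose identifiers are not paired with names followed a member more closely than any other member did. ENSG00000197111.16 had r = 0.775 with HSPA5, just above HSP90B1 (r = 0.773). ENSG00000204256.13 had r = 0.894 with CALR, whose highest r with a member was 0.718. PDIA4 had 12 features with r above 0.5 and DNAJB9 had 3, while CALR had 1062 and CANX 1030.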
